A study of Mus musculus with 6 samples.

Results

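Mammalian cells detect interferons through paired receptor chains and pass the signal on through STAT and IRF transcription factors. The levels of 9 genes of this pathway were read in lymphatic endothelial cells from the meninges of young and old mice: the receptor chains Ifnar1, Ifnar2, Ifngr1 and Ifngr2, the transcription factor Stat2, and the interferon regulatory factors Irf1, Irf3, Irf7 and Irf9. They were chosen by name, and each had 1 row among the 22964 genes of the table. All 9 were among the 15394 genes that had enough counts to be tested. The study set 3 young samples, from mice of 2 to 3 months, against 3 old samples, from mice of 20 to 24 months. All animals were male, untreated wild-type C57BL/6J mice, bought or supplied by a national ageing programme and housed alike. Flow cytometry selected cells without CD45, which marks leukocytes, that carried CD31, which marks endothelium, and podoplanin. RNA was amplified before sequencing. The sources used here do not say whether a sample was 1 animal or a pool, so the p-values reflect sample-to-sample spread that may be technical.

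Type I interferons bind a receptor made of IFNAR1 and IFNAR2, whose kinases TYK2 and JAK1 phosphorylate STAT2. It joins IRF9 in the complex ISGF3, which binds interferon-stimulated response elements (ISRE) in target promoters. Interferon-gamma binds IFNGR1 and IFNGR2, whose kinases JAK1 and JAK2 activate STAT signalling at gamma-activated sites (GAS), and IRF1 is a classic early target. IRF3 is present in resting cells and is activated by the kinase TBK1 to switch on interferon genes. IRF7 shares that role and is itself made in response to type I interferon, which closes a positive loop. Endothelial cells are known to respond to both kinds of interferon.

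Promoter windows from RefSeq (build GRCm38.p6), each running from 250 bases before to 50 bases after a transcription start, were available for all 9 genes, 11 windows in all. They are shown for Irf7 and Irf9, the genes whose young and old samples did not overlap, and for Irf1 and Stat2, whose windows hold a match to a motif of the pathway. Irf1 and Irf9 have 2 windows each, of which the first is shown. Capitals mark a match to GAAANNGAAA, the core of an ISRE, or to TTCNNNGAA, the core of a GAS. Both strands were searched, and the pair of motifs overlapped in none of the windows shown.
Irf1 (chr11:53769764-53770063, plus strand): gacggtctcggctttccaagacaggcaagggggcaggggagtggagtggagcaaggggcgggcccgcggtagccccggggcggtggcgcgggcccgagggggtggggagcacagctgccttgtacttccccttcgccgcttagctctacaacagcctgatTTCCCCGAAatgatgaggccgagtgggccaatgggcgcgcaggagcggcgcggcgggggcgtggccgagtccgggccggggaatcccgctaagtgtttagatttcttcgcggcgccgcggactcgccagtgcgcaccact
Stat2 (chr10:128270248-128270547, plus strand): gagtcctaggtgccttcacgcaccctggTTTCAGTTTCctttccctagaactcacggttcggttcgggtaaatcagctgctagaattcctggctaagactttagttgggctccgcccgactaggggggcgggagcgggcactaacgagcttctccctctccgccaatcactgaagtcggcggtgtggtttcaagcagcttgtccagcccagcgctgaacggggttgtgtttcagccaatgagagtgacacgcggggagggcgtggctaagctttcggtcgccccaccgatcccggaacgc
Irf7 (chr7:141266375-141266674, minus strand): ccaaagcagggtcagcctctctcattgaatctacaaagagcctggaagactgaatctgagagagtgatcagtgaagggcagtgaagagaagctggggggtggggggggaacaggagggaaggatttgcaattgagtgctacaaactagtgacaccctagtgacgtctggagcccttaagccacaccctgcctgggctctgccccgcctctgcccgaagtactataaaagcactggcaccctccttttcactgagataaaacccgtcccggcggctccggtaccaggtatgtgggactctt
Irf9 (chr14:55603735-55604034, plus strand): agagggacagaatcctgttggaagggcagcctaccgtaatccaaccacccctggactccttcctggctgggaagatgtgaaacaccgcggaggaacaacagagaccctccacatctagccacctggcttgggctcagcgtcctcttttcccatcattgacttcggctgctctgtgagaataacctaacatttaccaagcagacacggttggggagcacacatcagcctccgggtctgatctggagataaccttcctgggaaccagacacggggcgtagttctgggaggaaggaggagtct

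The Irf1 window held the GAS match TTCCCCGAA, which begins 90 bases upstream of the start. The Stat2 window held the ISRE-type match TTTCAGTTTC, read on the strand opposite to the gene and beginning 222 bases upstream. Among the receptor genes, the Ifnar2 window held the GAS match TTCCTGGAA, beginning 214 bases upstream, and the Ifnar1 window held TTCACGGAA, beginning 5 bases upstream and running into the transcript. The Irf3, Irf7, Irf9, Ifngr1 and Ifngr2 windows held neither set of letters, which says nothing of sites outside the windows or of looser motifs. Of all 32851 RefSeq promoter windows of this length, 3.44% held the ISRE-type motif and 8.3% the GAS motif. Among the 11 windows of the 9 genes, 1 held the first and 3 held the second. A match is a description of letters and not a binding site.

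The samples held 14285794 to 21043945 estimated counts. Genes that define lymphatic endothelium were present in every sample: Prox1, its fate-setting transcription factor, had 877 to 945 CPM (estimated counts scaled by library size) in young and 932 to 1410 CPM in old samples. Lyve1, a hyaluronan receptor, Flt4, the receptor for VEGF-C, and Pecam1, which encodes CD31, were likewise present. Pdpn, which encodes podoplanin, had 61.9 to 79.7 CPM in young and 57.8 to 142 CPM in old samples. The sorts also held RNA of other cells: Ptprc, which encodes CD45, ran from 0.993 CPM in young sample 1 to 72.7 CPM in young sample 3 and from 30.7 to 62.9 CPM among the old samples. Mitochondrial ribosomal RNA took 15.7% to 16.5% of counts in young and 16.0% to 21.9% in old samples. In such bulk samples, fewer cells of a type and less RNA per cell cannot be told apart.

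With age, no member passed the test over all genes, and Irf7 and Irf9 were the 2 members whose groups did not overlap. EdgeR's quasi-likelihood test with Benjamini-Hochberg adjustment called 0 of 15394 genes (0.0%) and 0 of the 9 members. At an unadjusted p under 0.05, 3 members were higher in old cells (Irf7, Irf9 and Irf1) and 0 were lower, against 2.86% of all genes tested that were higher and 2.7% that were lower. The log2 fold change was positive for 7 of the 9, against 51.0% of all genes tested. The median over the members was 0.37, against 0.02 over all genes tested. Every old sample was above every young sample for 2 members, Irf7 and Irf9, and for 5.56% of all genes tested, and the reverse held for 0 members and 6.44% of genes. DESeq2 and limma-voom called 0.882% and 0.0195% of genes, and no member among them. Since the members were chosen with earlier results of these data known, these counts describe the list and are no test of it.

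**Figure D1:**
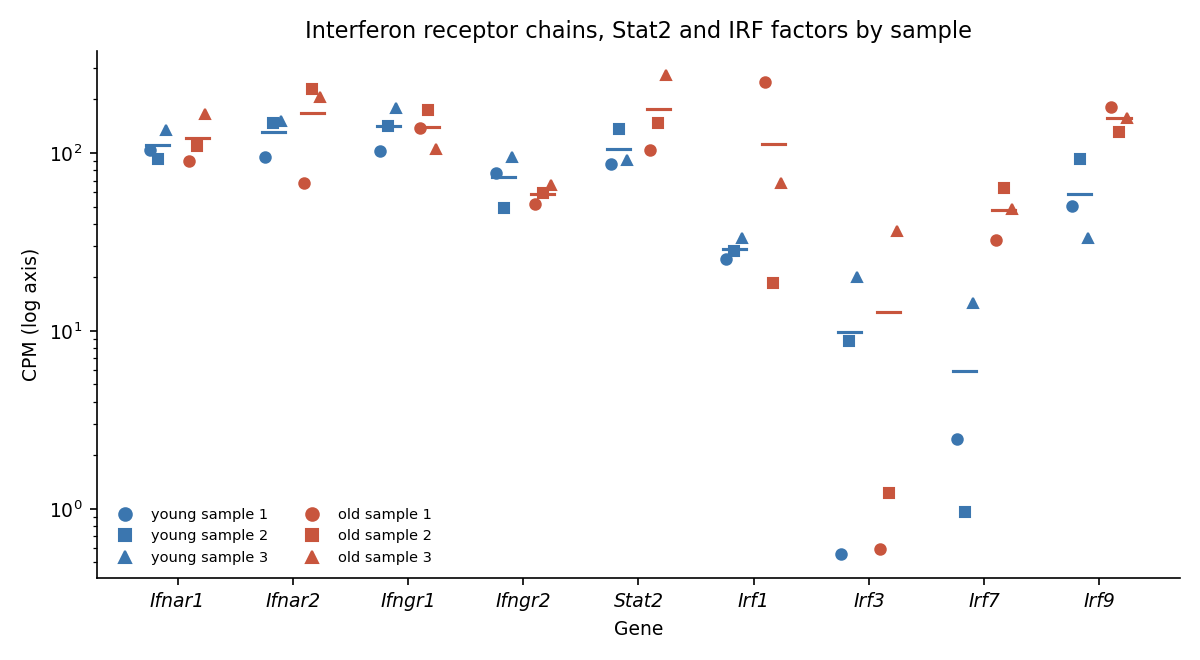
CPM on a log axis for the 9 genes in the 3 young (blue) and 3 old (red) samples; each symbol is 1 sample and each line the mean of its group. Irf7 and Irf9 have every old sample above every young one, Irf1 has 1 old sample at 249 CPM, and Irf3 is spread over more than a log10 unit in both groups.

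Irf9 (ENSMUSG00000002325; chromosome 14, 55603571 to 55610030, plus strand, in GRCm38) encodes the DNA-binding subunit of ISGF3. Its level in young samples 1, 2 and 3 was 50.6, 92.8 and 33.4 CPM, against 180, 131 and 158 CPM in the old samples, likewise in the order 1, 2 and 3 used throughout. The lowest old sample stood above the highest young one. The means were 58.9 ± 30.6 (SD, n = 3) and 156 ± 24.5 CPM (SD, n = 3). The log2 fold change was 1.41 (SE 0.43), or 2.65-fold, with edgeR adjusted p = 0.778. Irf9 had the smallest unadjusted edgeR p of the 9 genes, 0.00962. Its exons share 123 bases with Rnf31, a neighbour on the same strand, whose reads there cannot be told from its own. Rnf31 had 9434 estimated counts over the 6 samples.

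Irf7 (ENSMUSG00000025498; chromosome 7, 141262706 to 141266481, minus strand), the factor whose own production is driven by interferon, had the largest fold change of the 9. Young samples 1, 2 and 3 gave 40, 19 and 319 estimated counts, and old samples 1, 2 and 3 gave 435, 873 and 990. On the CPM scale the young had 2.48, 0.965 and 14.4, and the old had 32.5, 63.4 and 48.3. Young sample 3 accounted for most of the young signal, and the groups did not overlap. The means were 5.94 ± 7.33 (SD, n = 3) and 48.1 ± 15.4 CPM (SD, n = 3). The log2 fold change was 3.02 (SE 1.03), or 8.08-fold, with edgeR adjusted p = 0.855. Without young sample 3 the log2 fold change was 4.79, and without young sample 2 it was 2.51, so the size of the fold depends on which young samples are in the fit. Part of Irf7, 45 exon bases, overlaps Phrf1 on the other strand, which had 6655 estimated counts over the 6 samples, and the sources used here do not give strandedness. Reads from that stretch cannot be told apart.

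Irf1 (ENSMUSG00000018899; chromosome 11, 53770014 to 53778374, plus strand), an early target of interferon-gamma whose promoter carries the GAS letters shown above, rested on 1 old sample. The young samples lay close together at 25.2, 28.1 and 33.4 CPM, while the old samples had 249, 18.5 and 67.4 CPM. Old sample 2 was below every young sample and old sample 1 far above, so the groups overlapped. The log2 fold change was 1.95 (SE 0.81; edgeR adjusted p = 0.888), and it was 0.57 without old sample 1.

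Irf3 (ENSMUSG00000003184; chromosome 7, 44997648 to 45002848, plus strand), the factor held ready in resting cells, had a wide scatter at both ages. Young samples gave 9, 172 and 449 estimated counts and old samples 8, 17 and 743, or 0.559, 8.74 and 20.2 CPM against 0.599, 1.24 and 36.3 CPM. The highest sample was 36.2 times the lowest within the young group and 60.6 times within the old group. Of the 11552 tested genes with a mean of at least 5 CPM, 5.27% and 8.3% varied at least that much within young and old samples. The log2 fold change of 0.37 (SE 1.64) became −3.42 without old sample 3 and 1.46 without young sample 3. Exons also overlap a neighbour for Irf3 (88 bases, Bcl2l12), Irf1 (135 bases, Gm17334) and Ifnar2 (315 bases, Gm21970), with 186, 84 and 799 estimated counts for those neighbours over the 6 samples.

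Stat2 (ENSMUSG00000040033; chromosome 10, 128270559 to 128292849, plus strand), the STAT that is specific to type I and type III interferon signalling, had 87.1, 136 and 91.7 CPM in young samples against 104, 148 and 275 CPM in old samples. Only old sample 3 stood above the young range by a wide margin. The log2 fold change was 0.75 (SE 0.41; edgeR adjusted p = 0.891), and it was 0.26 without old sample 3. Irf9 and Stat2, partners in ISGF3, were compared within each sample per kilobase of merged exons, which needs no scaling between samples. The ratio of Irf9 to Stat2 was 0.640, 0.752 and 0.400 in young and 1.91, 0.977 and 0.630 in old samples. Old sample 3 lay inside the young range, so the ratio did not separate the ages.

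The receptor chains overlapped between the ages in either family. Ifnar2, Il10rb, Ifnar1 and Ifngr2 lie in that order in a row on chromosome 16, while Ifngr1 lies on chromosome 10. Of the type I chains, Ifnar1 (chromosome 16, 91485238 to 91507441, plus strand), the chain that binds TYK2, had 104, 92.1 and 134 CPM in young samples against 90.1, 110 and 165 CPM in old samples. Its log2 fold change was 0.14 (SE 0.35). Ifnar2 (chromosome 16, 91372783 to 91405589, plus strand), the chain with the higher affinity for interferon and the site of STAT2 docking, had 94.5, 147 and 151 CPM in young samples against 68.2, 230 and 205 CPM in old samples. Old sample 1 was the lowest of all 6 and the other old samples were the highest, and the log2 fold change was 0.36 (SE 0.46). The estimate is uncertain for Ifnar2 because 8.5% of its transcripts' 31-base words also occur in Gm21970, an overlapping gene on the same strand.

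Of the chains for interferon-gamma, Ifngr1 (chromosome 10, 19591949 to 19610229, plus strand), the ligand-binding chain, had 102, 143 and 179 CPM in young samples against 139, 174 and 105 CPM in old samples. The ranges nearly coincided, and the log2 fold change was −0.02 (SE 0.34). Ifngr2 (chromosome 16, 91547072 to 91565623, plus strand), the chain that recruits JAK2, had 77.4, 49.2 and 94.4 CPM in young samples against 51.5, 59.2 and 66.2 CPM in old samples. All old values fell inside the young range, with a log2 fold change of −0.32 (SE 0.41). EdgeR adjusted p-values for the 4 chains were 0.965 to 1.00.

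**Figure D2:**
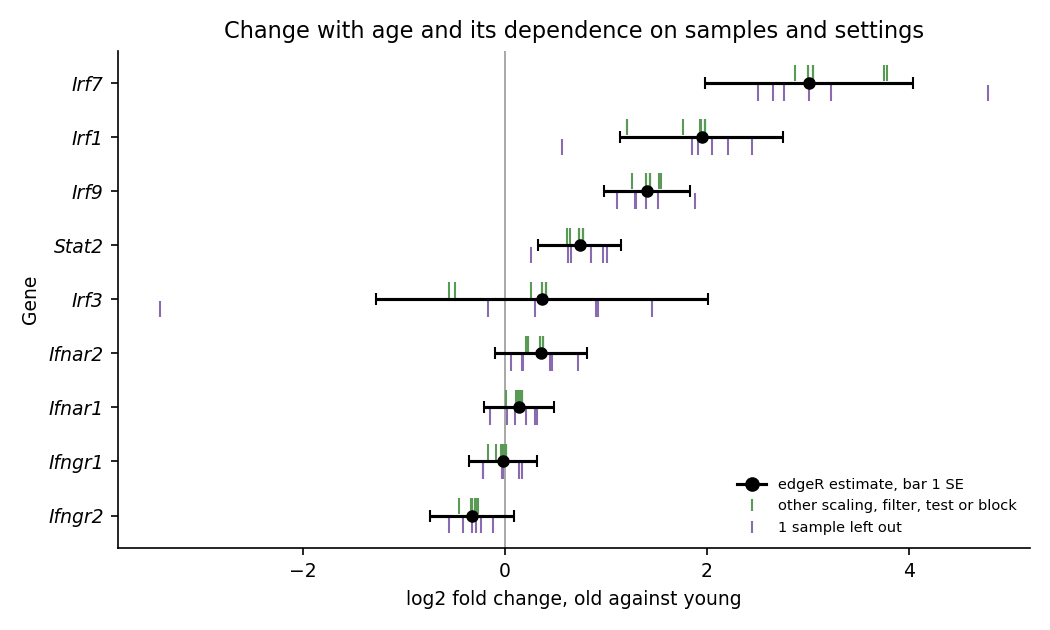
Log2 fold change, old against young, for the 9 genes: black points are the edgeR estimates with bars of 1 SE, green ticks the other scalings, filters, tests and the block, and purple ticks the fits with 1 sample left out. Irf7, Irf1, Irf9, Stat2 and Ifnar2 have every tick above 0, Ifngr2 has every tick below 0, and Irf3 runs from −3.42 to 1.46.

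To compare the genes with each other, CPM were divided by the length of each gene's merged exons in kilobases. Ifngr1 and Ifnar2 held the first 2 places at both ages, with means of 49.6 and 39.3 CPM per kilobase in young and 48.9 and 50.4 in old samples. The order below them differed between the ages. In young samples Ifngr2, Ifnar1 and Stat2 came next, at 19.6, 18.6 and 17.7 CPM per kilobase, ahead of Irf9 at 10.9 and Irf1 at 7.27. In old samples Stat2, Irf9 and Irf1 came next, at 29.7, 29.1 and 28.1, ahead of Ifnar1 at 20.5 and Ifngr2 at 15.7. The old mean of Irf1 rested on old sample 1, at 62.7 CPM per kilobase against 4.66 to 16.9 in the other samples. Irf7 was lowest in young samples, at 1.57 against 2.86 for Irf3, and Irf3 was lowest in old samples, at 3.69 against 12.7 for Irf7. Over all 6 samples the order of the means was Ifngr1, Ifnar2, Stat2, Irf9, Ifnar1, Irf1, Ifngr2, Irf7 and Irf3. Neighbours in this order overlapped in every case over the 6 samples, and Ifnar2 over Stat2 was the 1 neighbouring pair ordered alike in all 6, while Irf1 exceeded Ifngr2 in 1 of 6. With the length of the longest transcript in place of merged exons, Irf1, whose mean rests on old sample 1, moved from the sixth place to the third, Stat2 from the third to the fourth and Irf9 from the fourth to the sixth. The places of Ifngr1, Ifnar2, Ifnar1, Ifngr2, Irf7 and Irf3 were the same.

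Within each receptor 1 chain was more abundant per kilobase than its partner. Ifnar2 exceeded Ifnar1 in every sample, with ratios of 1.62, 2.85 and 2.01 in young and 1.35, 3.73 and 2.22 in old samples. With the longest transcript as the length, the ratio in old sample 1 was 0.972, so this order depends on the length there. Ifngr1 exceeded Ifngr2 in every sample with either length. Those ratios were 1.74, 3.84 and 2.51 in young and 3.56, 3.88 and 2.10 in old samples, and the ages overlapped.

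**Figure D3:**
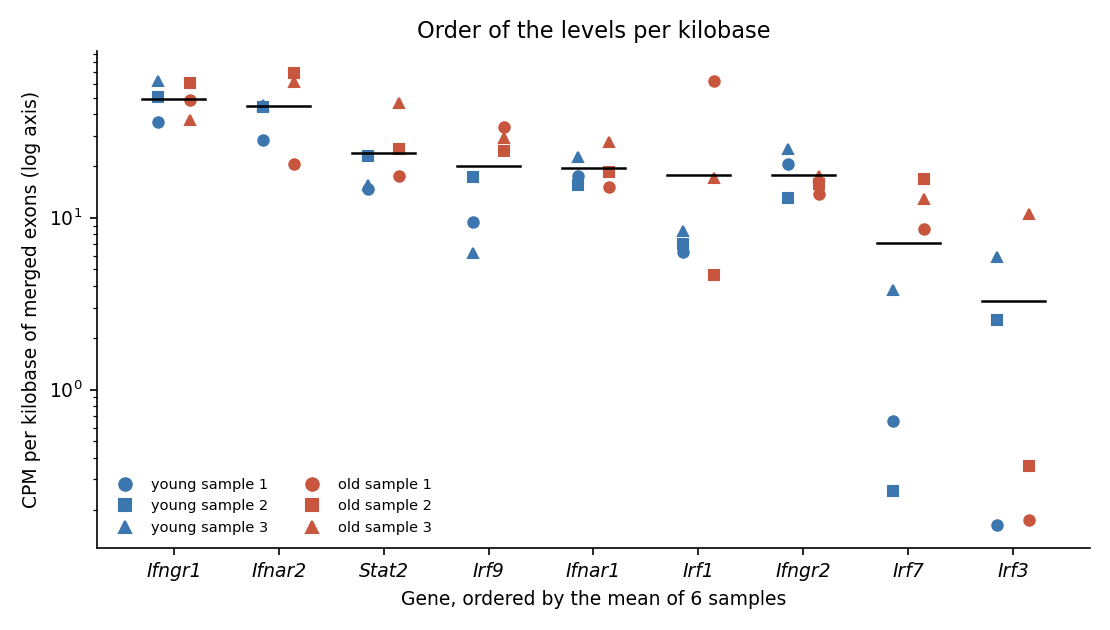
CPM per kilobase of merged exons on a log axis for the 9 genes, ordered by the mean of the 6 samples (black line), with young samples in blue and old samples in red. Ifngr1 and Ifnar2 have the highest means, 49.2 and 44.9, neighbouring genes overlap, and the black line of Irf1 is drawn up by old sample 1.

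Other genes of the pathway were read from lists of named genes. Of the receptor chains and Janus kinases, 9 of 10 listed genes were tested, with 5 positive and 4 negative log2 fold changes and 0 calls. Jak1, the kinase shared by both receptors, had 291, 324 and 277 CPM in young samples against 464, 299 and 332 CPM in old samples. Jak2, the kinase of IFNGR2, had 59.3 to 83.3 CPM in young and 47.1 to 83.7 CPM in old samples. Tyk2, the kinase of IFNAR1, was erratic: it had 8.75, 124 and 0 CPM in young samples against 97.9, 0.436 and 1.17 CPM in old samples. Its 0 in young sample 3 allows up to 0.135 CPM. Ifnlr1, the chain specific to type III interferons, was at 1.49 CPM or lower in every sample and was not tested. Jak3, the kinase of receptors that share the common gamma chain, was the 1 of the 9 whose groups did not overlap (old above young, as for 5.56% of all genes tested), with 50.1, 41.3 and 66.4 CPM against 105, 82.5 and 67.8 CPM. Il10rb, the chain that type III interferons share with interleukin-10, had 27.2 to 52.7 and 12.2 to 47.1 CPM.

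Of 6 STAT genes listed, 5 were tested, with 3 positive and 2 negative log2 fold changes and 0 calls. Stat3, which carries signals of the interleukin-6 family, had 162, 185 and 208 CPM in young samples against 170, 238 and 331 CPM in old samples. Stat6, which carries those of interleukin-4, had 66.1, 203 and 97.8 CPM against 43.3, 132 and 83.1 CPM.

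All 11 listed IRF genes and IRF2-binding proteins were tested, with 8 positive and 3 negative log2 fold changes and 0 calls. Outside the 9 genes, 1 had every old sample above every young one, Irf4, and 1 had the reverse, Irf5, against 5.56% and 6.44% of all genes tested, so these counts of 7 genes are no result about the list. Irf4, a factor of lymphocytes and plasma cells, had 0.0621, 3.25 and 1.13 CPM in young samples against 6.66, 18.2 and 47.2 CPM in old samples. Irf5, a factor of macrophages and dendritic cells, had 17.8, 19.0 and 25.6 CPM in young samples against 0.224, 10.7 and 2.05 CPM in old samples. Irf8, a factor of the same cells, had 2.79, 46.0 and 56.4 CPM against 65.1, 25.7 and 22.9 CPM. Irf2, which competes with IRF1 for its sites, had 2.79 to 17.1 and 2.17 to 20.7 CPM.

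Interferon transcripts themselves were close to 0. Of 21 interferon genes listed, 5 had a row, none passed the filter, and the highest value was 1.68 CPM (Ifnz in young sample 2). Ifnb1, the main interferon gene induced by IRF3, was at 0.675 CPM in young sample 3 and at 0 in the other samples. Ifna2, Ifna16 and Ifnk were at 0.621 CPM or lower throughout.

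The lists of inhibitors that end the signal and of adaptors that start it had medians near that of all genes tested. Of 13 feedback inhibitors tested, 7 were positive and 6 negative, with a median log2 fold change of 0.00 against 0.02 over all genes. Those with the smallest p were Pias1, a SUMO ligase that restrains STAT signalling, with 85.0, 78.5 and 59.7 CPM in young samples against 46.4, 41.6 and 27.4 CPM in old samples, Usp18 and Socs3. Usp18, the ISG15 protease that blocks IFNAR2, had 21.0, 7.16 and 12.5 CPM against 35.1, 30.6 and 20.8 CPM. Socs3, an inhibitor of JAK kinases, had 14.0, 33.1 and 52.7 CPM against 21.1, 85.3 and 97.0 CPM. None of the 3 passed, and Pias1 was the 1 of the 13 whose groups did not overlap (old below young, as for 6.44% of all genes tested).

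Of 14 adaptors and kinases upstream of IRF3 and IRF7, 6 were positive and 8 negative, with a median of −0.08 and 0 calls. Ticam2, an adaptor of Toll-like receptor 4, had 2.48, 14.1 and 21.9 CPM in young samples against 1.72, 3.85 and 1.51 CPM in old samples. Irak1, a kinase downstream of MYD88, had 57.3, 99.2 and 132 CPM against 48.8, 38.3 and 78.1 CPM. Tbk1, the kinase that activates IRF3, had 49.6, 39.5 and 21.7 CPM against 150, 69.0 and 21.2 CPM. These 3 had the smallest p of the list, and each overlapped between the ages.

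Genes of either target list were mostly positive, without single calls. Whether any interferon acted on them, and of which kind, was not tested. Of 29 ISGF3 targets tested, 23 were positive and 6 negative, and the median log2 fold change was 0.83 against 0.02 over all genes tested. Every old sample was above every young one for 11 of the 29 and below for 0, against 5.56% and 6.44% of all genes tested. Ifi44, an antiviral gene, had 60.1, 53.6 and 35.6 CPM in young samples against 113, 130 and 109 CPM in old samples. Ddx60, a helicase that aids RNA sensing, had 33.3, 25.8 and 35.3 CPM against 136, 51.5 and 95.2 CPM. Oas1a, an RNA-sensing synthetase with near-identical copies and so uncertain, had 9.81, 4.88 and 2.48 CPM against 130, 37.9 and 15.2 CPM. For these 3, the members of the list with the smallest p, the groups did not overlap.

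Of 22 interferon-gamma targets tested, 20 were positive and 2 negative, and the median was 0.81. Every old sample was above every young one for 7 of the 22 and below for 0, against the same 5.56% and 6.44% of all genes. Irgm2, an immunity-related GTPase, had 140, 136 and 111 CPM in young samples against 308, 254 and 264 CPM in old samples. Iigp1, another such GTPase, had 72.9, 84.2 and 91.9 CPM against 202, 170.0 and 190.4 CPM. Both lay far apart by age relative to the spread within a group, with edgeR adjusted p = 0.686 for each. The span of Irgm2 overlaps that of Igtp, another listed gene on the same strand. How reads were split between Irgm2 and Igtp is not known. Psmb9, an immunoproteasome subunit and known target of IRF1, had 18.9, 39.8 and 31.1 CPM against 217, 38.4 and 122 CPM. The interferon-induced lists overlap with genes already seen to differ in these samples and are no independent evidence of direction.

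**Figure D4:**
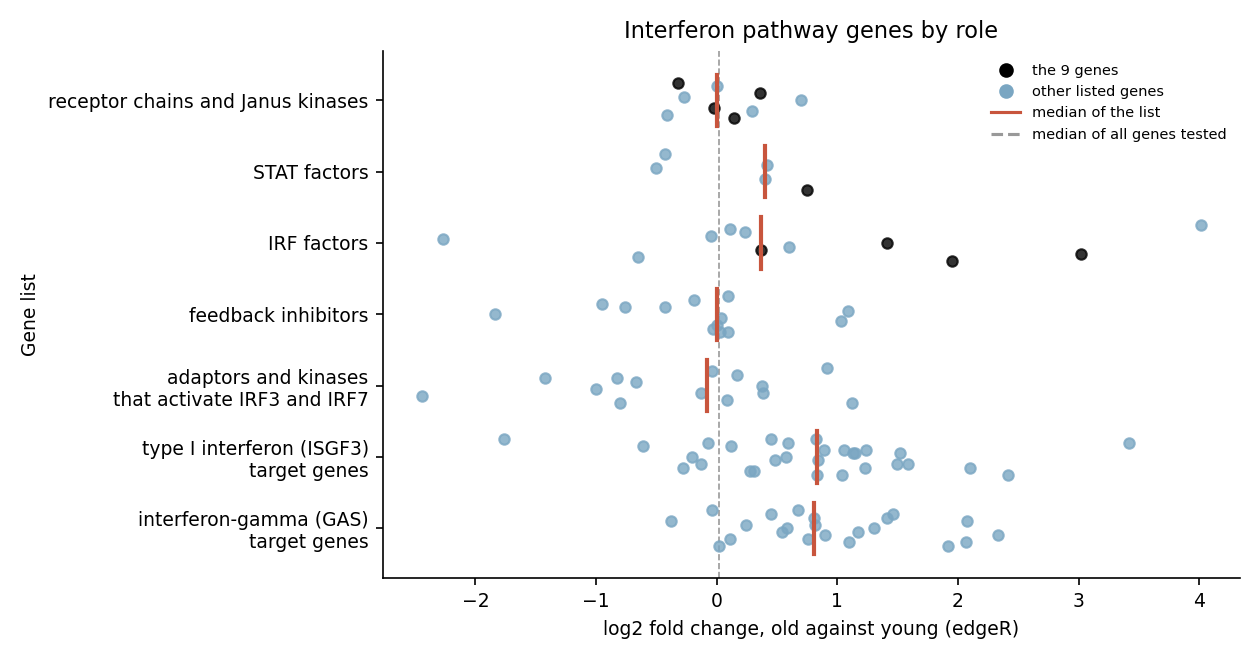
Log2 fold change, old against young, for each tested gene of 7 lists: black points are the 9 genes, blue points the other listed genes, red bars the medians of the lists and the dashed line the median of all genes tested (0.02). The target lists have medians of 0.83 and 0.81 while receptors, inhibitors and adaptors centre near 0.

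RNA of other cell types varied beside these values. Summed over 16 macrophage and microglia markers, young samples had 917, 3731 and 5124 CPM and old samples 903, 2473 and 1536 CPM. Of the 16, 15 had a negative log2 fold change. The exception, Mrc1, had 401, 452 and 362 CPM in young samples against 679, 414 and 739 CPM in old samples. It made up most of the sum in old sample 1. Which cells made the Mrc1 RNA was not tested. Irf5 was lower in every old sample than in any young one, and Irf7 higher. Young sample 1 and old sample 1 had the lowest macrophage sums. There Irf7 was at 2.48 and 32.5 CPM and Irf9 at 50.6 and 180 CPM. This pair was not matched for leukocyte RNA. Pan-leukocyte markers summed to 136 CPM in young sample 1 and 248 CPM in old sample 1. In the same order, Irf8 was at 2.79 and 65.1 CPM, while Irf5 went the other way, at 17.8 and 0.224 CPM. These values are from 1 sample per age, and the part of macrophage RNA in Irf7 and Irf9 was not tested. The 9 measured markers of dendritic cells, which make much Irf7, include the interferon target Bst2 and summed to 91.3, 360 and 318 CPM in young samples against 152, 303 and 310 CPM in old samples. Of the 9, 4 had a positive and 5 a negative log2 fold change, with Bst2 at 1.23, Zbtb46 at 0.82 and Siglech at −2.58. Most of the sum in each old sample came from Bst2 (57.3, 109 and 67.1 CPM) and Zbtb46 (64.8, 117 and 172 CPM). In young samples Bst2 had 9.99, 46.9 and 42.8 CPM and Zbtb46 54.9, 56.0 and 89.4 CPM. The sum is therefore no clear reading of dendritic cells. Siglech, a marker of plasmacytoid dendritic cells and microglia, had 2.11, 190 and 159 CPM in young samples against 7.86, 48.3 and 2.49 CPM in old samples. Of these 2 lists, Tyrobp, Pf4 and Itgax were at 0 in at least 1 sample.

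The 6 pan-leukocyte markers, all with negative log2 fold changes, summed to 136 to 1039 CPM in young and 226 to 459 CPM in old samples. Lymphocyte and plasma cell markers summed to 77.8, 1055 and 96.0 CPM against 106, 929 and 1770 CPM. Old sample 3 was highest for this sum and for Irf4. Young sample 2 had a higher sum than old sample 2 but less Irf4, 3.25 against 18.2 CPM. Ighm gave 979 CPM of the sum in young sample 2 and 235 CPM in old sample 2. Igkc had 5.83, 2.08 and 0 CPM in young samples against 14.5, 637 and 497 CPM in old samples. Of the 7 tested markers of this list, 5 had a positive and 2 a negative log2 fold change. The part of lymphocyte and plasma cell RNA in Irf4 was not tested. The 10 lymphatic endothelial markers, all positive, summed to 10880 to 13420 CPM in young and 17170 to 21100 CPM in old samples. The 10 genes listed for blood endothelium summed to 1789 to 1844 and 2842 to 3304 CPM. The largest of these were Cdh5 (means of 699 and 975 CPM) and Kdr (362 and 562 CPM). Whether blood or lymphatic endothelium made their RNA was not tested. Fibroblast markers, 9 of 10 negative, summed to 6946 to 10340 and 3540 to 4571 CPM, and pericyte and smooth muscle markers, 8 of 10 positive, to 644 to 983 and 973 to 2019 CPM. Granulocyte and mast cell markers summed to 37.7 to 87.1 and 14.1 to 200.3 CPM. Lymphatic, blood endothelial and fibroblast sums were thus separated by age as Irf7 and Irf9 were, and their part in those values was not tested.

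**Figure D5:**
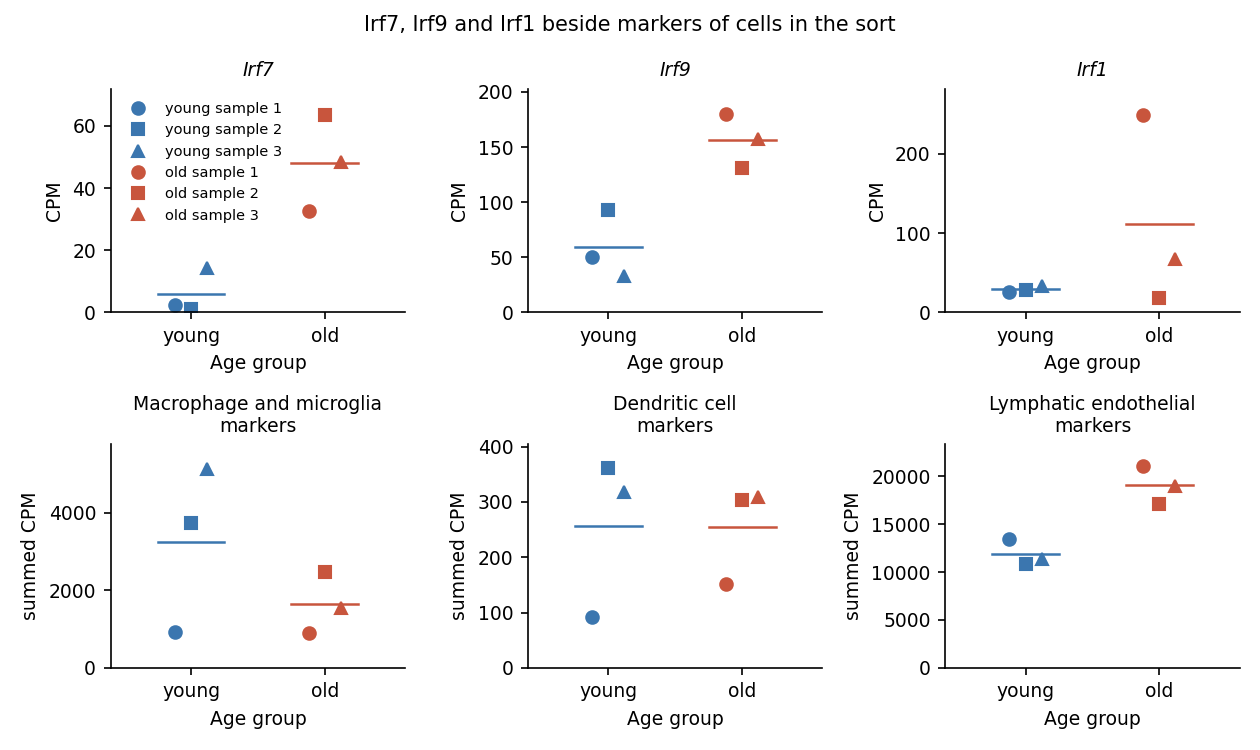
CPM of Irf7, Irf9 and Irf1 (top) and summed CPM of macrophage, dendritic cell and lymphatic endothelial markers (bottom) in each young (blue) and old (red) sample, with lines at group means and axes that start at 0. Irf7, Irf9 and the lymphatic markers separate the ages, while young sample 1 and old sample 1 are lowest for macrophage markers at 917 and 903 CPM. Mrc1 alone gives 401 and 679 CPM of those sums.

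The genes whose pattern over the 6 samples was most like those of Irf7 and Irf9 were sought among 6837 genes with a mean of at least 20 CPM, by Pearson correlation of log2 CPM. For Irf7 they were Ifi203, an interferon-inducible gene (r = 0.99), Eif4h (0.98), Lrba (0.97), Mta2 (0.97) and March5 (0.97). For Irf9 they were Samhd1, a restriction factor that degrades nucleotides (0.99), Gramd1b (0.99), Ets1, an endothelial transcription factor (0.98), Gbp3, a guanylate-binding protein (0.97), and Idh3b (0.97). Ifi203 had 112, 98.9 and 178 CPM in young samples against 278, 314 and 294 CPM in old samples, with young sample 3 the highest of the young as for Irf7. Samhd1 had 178, 253 and 137 CPM against 410, 345 and 437 CPM, with young sample 2 the highest of the young as for Irf9. Irf7 and Irf9 were themselves less alike (r = 0.49). All genes share the same 6 libraries, so such values are a description only.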

How the data were processed

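RNA was measured in 3 samples of sorted meningeal lymphatic endothelial cells from young and 3 from old mice. FastQC, Salmon and mm10 appear in the submitters' processing notes, without versions or roles. The authors deposited estimated counts per Ensembl gene, all whole numbers, so rounding changed nothing. The sources used here do not give the step from transcripts to genes, the annotation or strandedness. Salmon divides shared reads by likelihood, so estimates of overlapping or copied genes depend on that split.

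Symbols matched 22738 of 22964 identifiers in GENCODE M21 (GRCm38, the assembly of mm10), which also gave positions (1-based) and exon lengths. Groups came from the labels. Genes were filtered with filterByExpr (minimum count 10, minimum total 15), which left 15394 and removed 7570, and scaled by TMM. They were tested two-sided with edgeR 4.0.16 (R 4.3.3), a robust quasi-likelihood fit on age, with Benjamini-Hochberg adjustment at 0.05. The SE is the log2 fold change divided by the square root of its F. CPM use TMM-adjusted library sizes, and log2 CPM a prior count of 2. A count of 0 allows up to 3 counts, which covers counting error only. DESeq2 1.42.0 and limma 3.58.1 were alternatives, with 2 scalings, 2 filters, a replicate block and each sample left out. The fits were also run on simulated counts with known changes, and the share recovered is not given here. No 2 libraries were alike (chi-square per degree of freedom at least 103).

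The members and lists were chosen with earlier results of these data known. The 9 genes are always named, any receptor, kinase, STAT or IRF gene may be named, and other lists give the 3 members with the smallest p, interferon genes with a count, and 5 genes most like Irf7 and Irf9. Marker genes besides these, such as Siglech, were named after their values were seen. Some genes of the STAT and IRF lists are not reported here and were left out of the counts and medians of those lists.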

Additional observations from a re-analysis of the deposited data

How the results depend on the processing

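No member passed the adjusted threshold under any of the 14 alternatives. The smallest adjusted p-values were 0.0779 for Irf7 and 0.142 for Irf9, both by DESeq2 without the filter, and for both genes the adjusted p reached 1.00 among the alternatives. Log2 fold changes stayed positive in all 14 for Irf7 (2.51 to 4.79), Irf9 (1.11 to 1.89), Irf1 (0.57 to 2.45), Stat2 (0.26 to 1.01) and Ifnar2 (0.06 to 0.73), and negative in all 14 for Ifngr2 (−0.55 to −0.11). Between 6 and 8 members were positive under every alternative. The unadjusted p was under 0.05 in 14 of 14 for Irf9, 12 for Irf7 and 7 for Irf1. Ifngr1 turned positive with relative log expression factors (0.0094), with DESeq2 (0.0092) and with DESeq2 run without the filter (0.0094), an alternative chosen after seeing the data. With 1 sample left out Ifngr1 ran from −0.21 to 0.17, Ifnar1 from −0.14 to 0.32 and Irf3 from −3.42 to 1.46. Irf3 was −0.49 by limma-voom and −0.55 with the replicate block. The cause of these turns was not tested.

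EdgeR called 0 genes under every scaling and filter, DESeq2 130, DESeq2 without the filter 294 and limma-voom 3, and edgeR 0 to 1 with a sample left out. The call in the last range came without old sample 1. At an unadjusted p under 0.05, edgeR counted 441 genes higher and 415 lower with TMM, and 285 higher and 546 lower with library size only. That scaling moved the median of all genes from 0.02 to −0.12, and the members by as much: Irf7 was 2.88 and Irf9 1.26. Deviations from the group mean had correlations of 0.08, 0.05 and −0.01 between samples with the same number. Between samples with different numbers they ran from −0.09 to 0.06. With 3 samples per group, these values cannot tell whether the numbers pair samples. The replicate block gave 0 calls, with 712 genes at an unadjusted p under 0.05 against 856, and a log2 fold change of 3.79 for Irf7 and 1.53 for Irf9. Low counts limit Irf3 and Irf7, which had under 50 counts in 3 and 2 of the 6 samples.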
